A study of Mus musculus with 3 samples.

Results

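The genes described here are 7 caspases, chosen by name: *Casp14* of the cornifying epidermis, the initiators *Casp8* and *Casp9*, the effector *Casp6*, and the inflammatory caspases *Casp1*, *Casp4* and *Casp12*. They are 7 of the 19927 genes listed in the deposited matrices, and they were followed through pooled levels, shares of cells and levels along *Krt14*, *Krt10* and *Lor*. The data are 3 droplet single-cell RNA libraries of dorsal skin of P18 mice, made on the Nadia instrument from cells released with trypsin and scraping. In the 2 control libraries the mice were *Vdr* flox/flox, and in the remaining library they were *Vdr* flox/flox; Krt14cre, named *Vdr* cKO. *Vdr* encodes the vitamin D receptor, and all mice, controls included, carry its floxed alleles. The *Krt14* promoter drives Cre in basal keratinocytes and in the outer root sheath, so that the descendants of these cells carry the deletion and cells of other origin do not. Per the study's methods, skin of 3 male mice was pooled for each library, and the deletion removes exon 3 of *Vdr*.

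Caspases are proteases that cut after aspartate and are made as inactive precursors. *Casp8* acts below death receptors and *Casp9* in the apoptosome, and both switch on effector caspases, a class to which *Casp6* belongs, while *Casp1* and *Casp4* (also called caspase-11 in the mouse) act in inflammasomes. *Casp14* stands apart, since it is made mainly in differentiating keratinocytes, takes part in the breakdown of filaggrin in the stratum corneum, and is not known as an executioner of apoptosis. At P18 the hair follicles of dorsal skin regress, a phase called catagen in which follicle cells die by apoptosis.

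In the GENCODE M21 annotation of GRCm38, *Casp14* lies on chromosome 10 from 78711991 to 78718294 on the minus strand, and its first listed transcript has 7 exons. *Casp1*, *Casp4* and *Casp12* are neighbours on chromosome 9, at 5298517 to 5307265, 5308828 to 5336783 and 5345430 to 5373032, all on the plus strand. *Casp8* (chromosome 1, 58795374 to 58847503) overlaps *Gm37760* on the same strand, so reads in this overlap could be assigned to either gene. *Casp9* (chromosome 4, 141793612 to 141815976) overlaps *Cela2a* and *Ctrc* on the opposite strand. Reads there could be mixed up only if the counting ignored the strand, which is not stated. *Casp6* lies on chromosome 3 at 129901425 to 129914103. The sequence upstream of *Casp14* is shown because *Casp14* carries most of the results. A further reason is that the deleted gene encodes a receptor that binds DNA at half-sites like AGGTCA. The sequence shown ends short of the GENCODE start at 78718294, and the bases between were not searched. It is the RefSeq window upstream of the gene, chr10:78718348-78718543 of GRCm38.p6, minus strand, 196 bases, written 5′ to 3′:
*Casp14*: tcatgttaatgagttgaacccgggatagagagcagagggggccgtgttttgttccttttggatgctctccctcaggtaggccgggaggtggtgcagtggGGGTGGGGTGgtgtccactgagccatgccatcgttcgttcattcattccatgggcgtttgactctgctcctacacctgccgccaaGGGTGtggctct
The capitals mark the letters CACCC on the opposite strand, which occur 3 times, with 2 of the matches side by side. These letters were chosen after the sequence had been seen, and 43.7% of 32817 such windows of the genome hold them on either strand, so the matches are a description only. Neither AGGTCA (in 11.2% of the windows) nor the AP-1 letters TGANTCA (in 5.42%) occur in this window on either strand. Only these exact letters were searched for. Other forms of the receptor's half-site were not, so their absence is not shown. The GC content of the window was 57.1%, against a median of 51.5% over all windows.

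Barcodes were taken as cells from 200 detected genes upward and up to 20% mitochondrial counts. This gave 1480 cells in control 1, 1658 in control 2 and 2622 in the library labelled *Vdr* cKO. Their totals were 18802408, 28690129 and 30954897 counts, with medians of 4055 to 4492.5 counts and 377 to 688.5 genes per cell. Between 60 and 85 barcodes of each library also occurred in another library. *Vdr* was at 40.7, 35.9 and 80.8 CPM (counts of a gene scaled to the library total), so it was not lower in the library labelled *Vdr* cKO; counts per gene do not show exon 3, and the level of *Vdr* therefore does not check the label. *Xist*, which is made from the inactive X chromosome of females, had 0 counts in both controls, while 740 cells of the library labelled *Vdr* cKO held it, at 142 CPM, and all 4 Y-linked genes examined were also present there (*Ddx3y* at 40.2 CPM, with 100.1 and 99.0 in the controls). The *Xist* counts conflict with the male mice named in the study's methods, and their source is not known. If the sex of the mice differed, it cannot be told apart from genotype in comparisons of this library with the controls. For these reasons the library is called by its label throughout. Basal keratinocyte genes summed to 4878, 3422 and 13271 CPM and inner root sheath genes to 0.585, 2.54 and 235.1 CPM, so the libraries also differed in the makeup of their cells.

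*Casp14* was by far the most counted of the 7 caspases, and in the library labelled *Vdr* cKO it was below both controls by less than 2-fold. It was at 170.3 CPM (95% interval 164.4 to 176.3) in control 1, at 228.5 (223.0 to 234.1) in control 2 and at 151.7 (147.4 to 156.1) in the library labelled *Vdr* cKO, from 3202, 6555 and 4695 counts. The library labelled *Vdr* cKO was thus lowest, by 0.39 on a log2 scale where 1 CPM was added to its level and to the control mean. Control 1 was below control 2 by a gap of the same order, -0.42. With TMM and RLE factors, which scale the libraries on the bulk of genes, the fold was -0.58 and -0.60, beyond that gap. The intervals of the levels are exact Poisson intervals and, like all intervals here, cover counting error only. Copies made by PCR make them too narrow. With 1 library of this genotype there is no test, and a gene was called when it had at least 50 CPM in a library and was over 2-fold above or below both controls. Of 3919 genes at that level, 206 or 5.26% were called, 4.06% higher and 1.2% lower. *Casp14* was the only caspase among the 3919 genes, and 0 of the 7 were called. With the level set at 10 CPM, 8.83% of 8806 genes were over 2-fold above both controls and 1.79% over 2-fold below. *Casp14*, *Casp1*, *Casp6* and *Casp8* then reached the level, and 0 of these 4 were called.

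**Figure D1:**
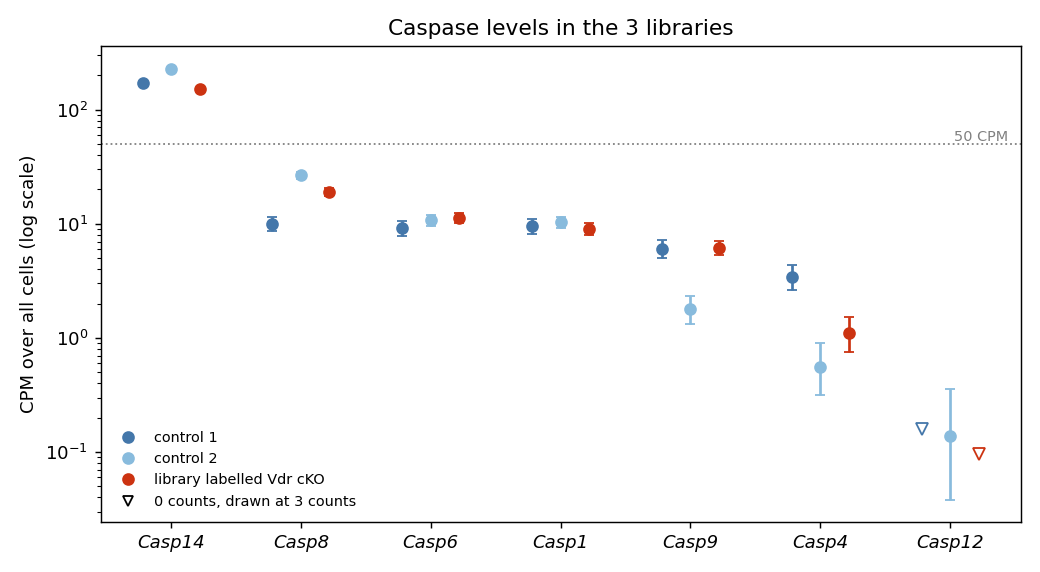
CPM of 7 caspases over all cells of each library (log scale), with exact Poisson 95% intervals; open triangles stand for 0 counts and are drawn at the level of 3 counts. *Casp14* lies above the dotted line at 50 CPM in all 3 libraries and the other 6 caspases lie below it, with the controls wide apart for *Casp8*, *Casp9* and *Casp4*.

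The initiator caspases were low. With all cells counted, the controls differed more from each other than the library labelled *Vdr* cKO differed from their mean. In the order control 1, control 2, library labelled *Vdr* cKO, which all triplets of values below follow, *Casp8* was at 9.999, 26.6 and 19.1 CPM, in 15, 69 and 104 cells. The library labelled *Vdr* cKO lay between the controls. *Casp9* was at 6.06, 1.78 and 6.14 CPM, in 5, 16 and 37 cells. Its log2 fold of 0.54 was smaller than the gap of 1.35 between the controls, but 91.2% of its counts in control 1 came from a single cell. Without the top cell of each library *Casp9* was at 0.533, 1.23 and 5.17 CPM, highest in the library labelled *Vdr* cKO. For *Casp9* the size of the gap between the controls therefore rests on that single cell of control 1.

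*Casp6*, an effector caspase that cuts nuclear lamins, was even across the libraries at 9.20, 10.7 and 11.3 CPM, a log2 fold of 0.17. It was counted in 4, 14 and 52 cells, and 58.4%, 34.5% and 17.4% of its counts came from its top cell. Without that cell the levels were 3.85, 7.01 and 9.36 CPM. Its evenness therefore rests on single cells of the controls.

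Of the inflammatory caspases, *Casp1*, which cuts the precursors of *Il1b* and *Il18*, was also even, at 9.52, 10.3 and 8.95 CPM. It was counted in 10, 28 and 61 cells, and without its top cell it was at 4.97, 8.15 and 6.64 CPM. *Casp4*, the sensor of cytosolic lipopolysaccharide, was at 3.404, 0.558 and 1.10 CPM in 4, 6 and 13 cells, with the library labelled *Vdr* cKO between the controls. *Casp12* had 4 counts in 1 cell of control 2 (0.139 CPM) and 0 counts in both other libraries, where 3 counts would correspond to 0.160 and 0.0969 CPM. *Casp12* was thus at the limit of detection in all libraries. Levels are compared between libraries and not between caspases.

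**Figure D2:**
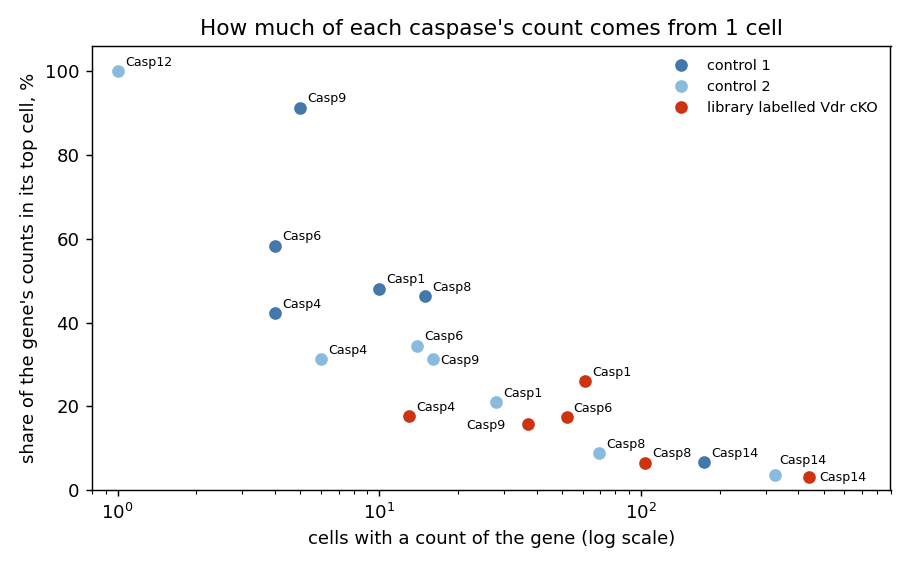
Share of a caspase's counts that came from its top cell, against the number of cells with a count (log scale), for each caspase and library with counts. *Casp14* is at 3.05% to 6.75% with 174 to 438 cells, while *Casp9* of control 1 is at 91.2% with 5 cells and *Casp12* of control 2 has all its counts in 1 cell.

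Few genes of the cell death pathways around the caspases reached 50 CPM, a level at which 5.26% of 3919 genes were called. The lack of calls among so few genes is not read as a result about these pathways. *Casp2*, a caspase with a long prodomain like that of the initiators, was at 13.2, 14.6 and 21.5 CPM, under the level for calls. Of 9 death receptor and necroptosis genes 1 reached 50 CPM, *Tnfrsf1a*, the receptor of tumour necrosis factor, at 65.3, 61.3 and 74.0 CPM, and it was not called. Of 6 genes of the apoptosome and mitochondrial factors 1 reached it, *Cycs* (cytochrome c), at 59.4, 90.6 and 53.3 CPM, again not called. Of 4 inhibitors of apoptosis 2 reached it, and *Xiap*, which blocks *Casp9*, was at 93.1, 82.6 and 57.6 CPM. It was below both controls by less than 2-fold. Of 7 caspase substrates 3 reached it (*Lmna*, *Rock1* and *Dffa*) and 0 were called. With the level set at 10 CPM, where 8.83% of genes were over 2-fold above both controls, 1 of 6 substrates was so too: *Parp1*, which is cut in apoptosis, at 10.2, 11.05 and 37.0 CPM. Of the apoptosome and mitochondrial factors, 1 of 4 was, *Endog*, a mitochondrial nuclease, at 2.23, 6.80 and 16.2 CPM, and of the 5 death receptor and necroptosis genes and 4 inhibitors at this level, 0 were called.

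Of 19 inflammasome and pyroptosis genes, 14 had counts and 4 reached 50 CPM, with 0 called. *Nlrp3*, *Nlrc4*, *Gsdmd*, *Gsdmc3* and *Gsdmc4* were not listed under these names in any of the matrices. *Pycard*, the adaptor that joins sensors to *Casp1*, was at 726, 744 and 539 CPM. *Nlrp10*, a sensor known from differentiated keratinocytes, was at 223, 296 and 289 CPM, and *Il18* at 116, 162 and 140 CPM. Of 14 genes of filaggrin and its processing 9 reached 50 CPM and 1 was called, filaggrin itself (*Flg*), which was at 880, 834 and 412 CPM and so lower in the library labelled *Vdr* cKO. The median log2 fold of these 9 genes was -0.33, against 0.0017 over the 3919 genes. A lower median was not particular to this list. It was -0.54 over 5 spinous keratinocyte genes and -0.98 over 7 granular keratinocyte genes, which include *Flg*, *Flg2* and *Hrnr*. Over 6 basal keratinocyte genes it was 1.76. The part of the makeup of the cells in these medians was not tested. *Hrnr*, a relative of filaggrin, was at 473, 678 and 267 CPM, 1 of the genes close to the 2-fold limit. At 10 CPM, where 1.79% of genes were over 2-fold below both controls, 1 of 5 inflammasome genes was called lower, *Il1a* (15.0, 6.69 and 1.52 CPM). Of 11 genes of filaggrin and its processing at this level 2 were called lower, *Flg* and *Dnase1l2*, a nuclease of cornifying cells (29.3, 38.5 and 14.3 CPM).

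The share of cells with a *Casp14* count did not separate the libraries. Unthinned, *Casp14* was found in 11.8%, 19.7% and 16.7% of cells. At 1000 counts per cell, with 14, 61 and 60 shallower cells left out, the shares were 6.21% (Clopper-Pearson 95% interval 5.03 to 7.57) in control 1, 8.27% (6.96 to 9.73) in control 2 and 6.21% (5.30 to 7.21) in the library labelled *Vdr* cKO. The intervals of all 3 libraries overlapped. The other 6 caspases were found in 0 to 1.25% of cells at this depth.

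Droplets with genes of immune cells held *Casp14* as well. In the library labelled *Vdr* cKO, 33 cells with T cell genes had *Casp14* at 219 CPM, and 31 cells with genes of antigen-presenting cells had it at 208 CPM, against 149 CPM in the 2509 cells of no such class. At 1000 counts per cell the shares were 6.06% (0.743 to 20.2), 6.452% (0.791 to 21.4) and 6.21% (5.28 to 7.24), from cells with unthinned medians of 13570, 8061 and 3947 counts. T cells and antigen-presenting cells should lack *Casp14*, but these classes also held *Lor* at 11438 and 16702 CPM and *Krt10* at 22959 and 32976 CPM. They held *Krt14* at 2300 and 1303 CPM, against 2004 CPM in the cells of no such class. The thinned shares of cells with *Krt14* were 84.8%, 64.5% and 58.0%. It was therefore not shown that these classes are free of keratinocytes. The *Casp14* shares rest on 2 of 33 and 2 of 31 cells, and in control 2 on 0 of 8 antigen-presenting cells (0 to 36.9%), so their intervals are wide. Unthinned, 4 of these 8 cells held *Casp14*, at 285 CPM, against 226 CPM in the cells of no such class of control 2. Both of the 2 T cells of control 2 held it too. In control 1 the 3 antigen-presenting cells and 1 T cell had 0 counts of it. The overall share of cells with a *Casp14* count was not shown to lie above that of these classes, whose content of keratinocytes is unknown. It is therefore not read as a share of expressing cells. Doublets and free RNA cannot be told apart in these values. In 52 cells with inner root sheath genes *Casp14* was at 127 CPM and was found in 7.69% of cells (2.14 to 18.5).

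To follow *Casp14* through differentiation, the cells of each library were divided by their level of *Lor* (loricrin, a protein of the cornified envelope) into cells without a count and the lowest, middle and highest tertile of the remaining cells. *Casp14* was higher in the highest than in the lowest tertile of *Lor* in all 3 libraries. In control 1 it was at 121, 164, 122 and 222 CPM from no count to the highest tertile. In control 2 it was at 35.9, 149, 261 and 381 CPM, and in the library labelled *Vdr* cKO at 154, 86.3, 123 and 241 CPM. The log2 ratios of the highest to the lowest tertile were 0.43, 1.35 and 1.47, and this contrast was chosen after the levels had been seen. Of the 3919 genes, 15.0% were higher in the highest tertile in all 3 libraries, and 3.7% were over 2-fold higher in all 3, a group that does not include *Casp14* because of control 1.

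Against the cells without a *Lor* count, which numbered 41, 35 and 101, the log2 ratios of the highest tertile were 0.87, 3.37 and 0.64. Of all genes, 21.1% were higher in this direction in all 3 libraries, and 7.83% over 2-fold. The bins without *Lor* rest on 54, 11 and 94 counts of *Casp14*. The size of these ratios differs widely, while their direction does not, and with each gene counted once per cell the ratio of control 2 was 1.12.

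The thinned shares moved the same way. From the lowest to the highest tertile of *Lor* they were 5.42% (3.57 to 7.84) and 7.02% (4.88 to 9.72) in control 1, 8.02% (5.87 to 10.7) and 10.9% (8.34 to 13.99) in control 2, and 4.43% (3.14 to 6.05) and 9.00% (7.12 to 11.2) in the library labelled *Vdr* cKO. The intervals of the lowest and highest tertile do not overlap in the library labelled *Vdr* cKO and overlap in both controls. Whether the controls differ from it in this was not tested. Cells of 1 library are not replicates, and the share of all genes with intervals that do not overlap was not computed.

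**Figure D3:**
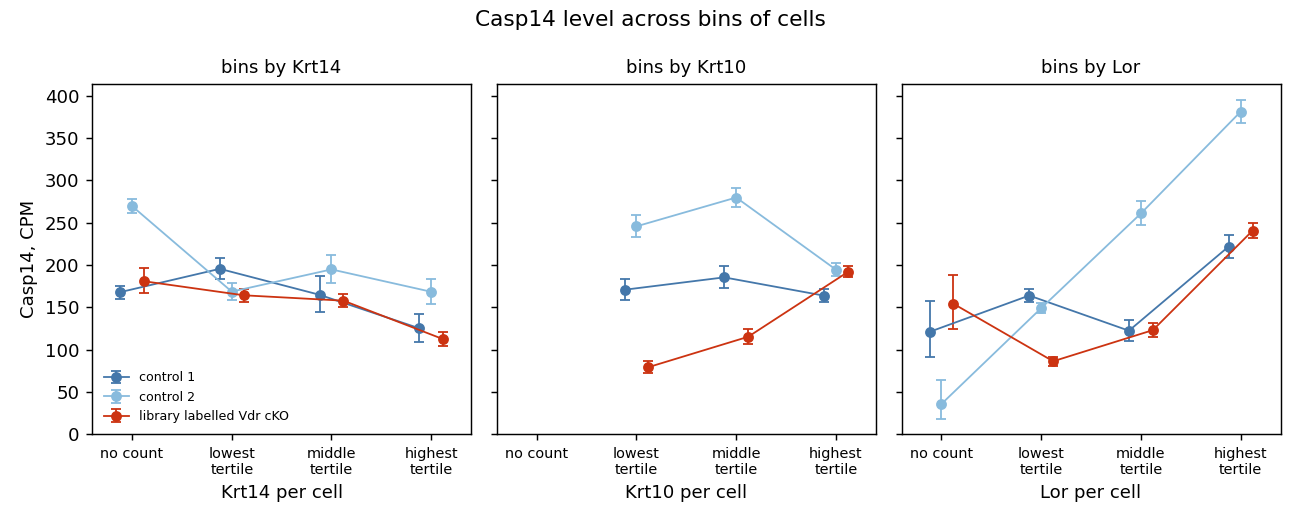
*Casp14* in CPM over the cells of each bin, with bins by the level of *Krt14*, *Krt10* or *Lor* within each library and bars for exact Poisson 95% intervals. The bins without *Krt10* hold 2, 10 and 16 cells with 0 counts of *Casp14* and are not drawn; along *Lor* all 3 libraries end highest, and along *Krt10* the library labelled *Vdr* cKO climbs from 79.4 to 192 CPM.

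Along *Krt10*, a keratin of all layers above the basal layer, the libraries went different ways. In control 1 *Casp14* was at 171, 185 and 164 CPM from the lowest to the highest tertile of *Krt10*, and in control 2 at 246, 280 and 195 CPM. The library labelled *Vdr* cKO had it at 79.4, 115 and 192 CPM. The log2 ratios of the highest to the lowest tertile were -0.060 and -0.33 in the controls and 1.26 in the library labelled *Vdr* cKO. Of the 3919 genes, 8.42% were lower in the highest tertile in both controls and higher in it in the library labelled *Vdr* cKO. This share counts differences of any size, so these signs alone are not rare. The share with a rise of over 2-fold in the library labelled *Vdr* cKO was not computed. The pattern of *Casp14* was noticed in these levels before the contrast was added, and the difference between the libraries was not tested. The sign turned in control 1 with bin limits common to the libraries (0.33) and in control 2 with each gene counted once per cell (0.089).

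The libraries differed mainly in the cells with little *Krt10*. In the lowest tertile *Casp14* was 2.15-fold below the nearer control in the library labelled *Vdr* cKO, where 7.91% of the genes were over 2-fold below both controls. In the middle tertile it was 1.61-fold below the nearer control, and in the highest tertile it lay between 164 and 195 CPM in all 3 libraries. The cells in these bins were not alike. The granular genes summed to 35526, 46599 and 15324 CPM in the lowest tertile of *Krt10* and to 7562, 6019 and 15009 CPM in the highest, and the basal genes summed to 8817, 6347 and 22921 CPM in the lowest. The part of this makeup in the pattern of *Casp14* was not tested. Of the 9 genes of filaggrin and its processing at 50 CPM, 4 had the signs of *Casp14* (*Flg2*, *Asprv1*, *Klk7* and *St14*), with log2 ratios of -1.23, -2.02 and 0.69 for *Flg2*, and 5 did not. *Flg*, at -2.32, -3.57 and -0.0498, was lower in all 3 libraries.

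The thinned shares along *Krt10* rose in the library labelled *Vdr* cKO from 3.89% (2.69 to 5.42) in the lowest tertile to 10.2% (8.25 to 12.4) in the highest. These intervals do not overlap, and here too the share of all genes of this kind was not computed. In control 1 they were 5.51% (3.66 to 7.92) and 6.79% (4.72 to 9.40), and in control 2 they were 7.01% (4.98 to 9.53) and 9.16% (6.83 to 11.96). In the controls the share and the CPM thus went opposite ways, and no order is read from these shares.

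**Figure D4:**
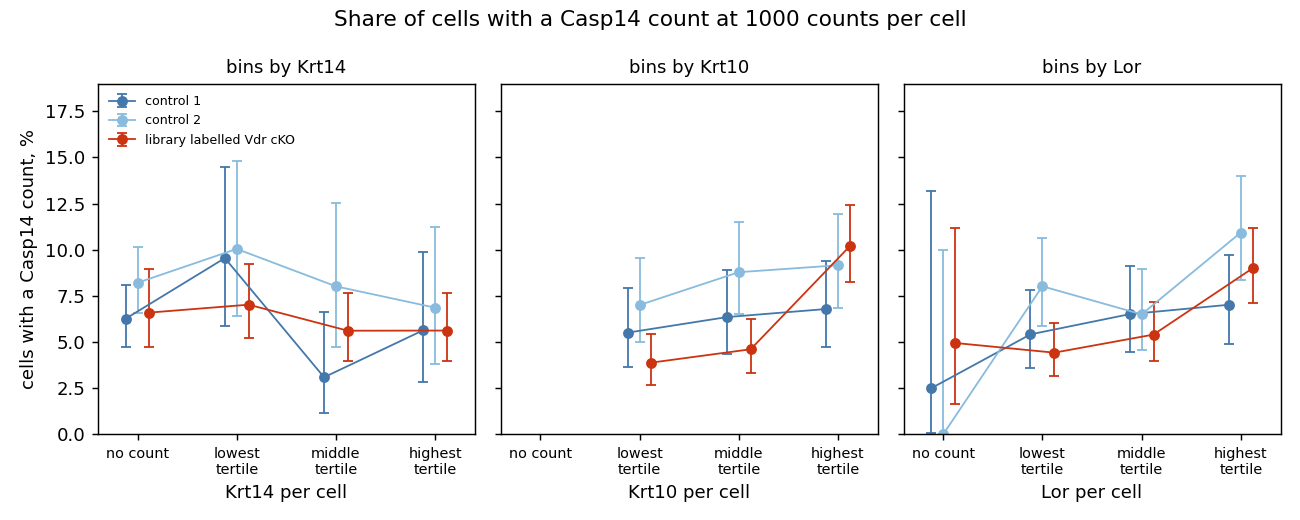
Share of cells with a *Casp14* count after each cell was thinned to 1000 counts, in the same bins, with Clopper-Pearson 95% intervals; the bins without *Krt10* are not drawn. The library labelled *Vdr* cKO goes from 3.89% to 10.2% along *Krt10* and from 4.43% to 9.00% along *Lor* between the lowest and the highest tertile.

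Along *Krt14*, a keratin of basal keratinocytes and the outer root sheath, *Casp14* was lower at the high end. In the highest tertile it was at 125, 168 and 112 CPM, against 168, 270 and 181 CPM in cells without *Krt14*. The log2 ratios were -0.42, -0.68 and -0.68, lower in all 3 libraries, as were 23.3% of all genes, and that of control 1 ranged from -1.88 to -0.0042 over the alternatives run. In these bins none was over 2-fold. With bins set on thinned cells the ratios were -1.88, -2.10 and -1.04, over 2-fold lower in all 3 libraries. The share of all genes at that setting is not given here. In the bins as reported, the thinned shares of the highest tertile, 5.64%, 6.86% and 5.62%, lay within the intervals of the cells without *Krt14*.

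The counts of *Casp6* lay almost wholly in cells with *Krt14*, an observation made after its levels had been seen. The share of all genes of this kind was not computed. Of the cells with a *Casp6* count, 3 of 4, 12 of 14 and 50 of 52 also had a *Krt14* count. Cells without *Krt14* made up 57.9%, 56.7% and 10.6% of the counts of the libraries and gave 0.578%, 8.14% and 2.86% of the *Casp6* counts. The highest tertile of *Krt14* had *Casp6* at 0, 65.1 and 22.3 CPM, and in control 1 the 172 counts in *Krt14* cells lay in the lowest tertile. In the library labelled *Vdr* cKO this was not particular to *Casp6*. Cells without *Krt14* gave 0% of the *Casp4* counts and 2.63% of those of *Casp9* there. For *Casp14*, *Casp1* and *Casp8* they gave 12.6%, 19.1% and 13.9%. The thinned shares of *Casp6* were 0%, 0.104% and 0.174% without *Krt14* and 0%, 0.980% and 0.760% in the highest tertile. Their intervals overlap in each library. Deeper cells are more likely to hold a count of either gene, and the part of depth was not tested.

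The pooled levels of *Casp1* and *Casp8* went the other way. *Casp1* was at 3.79, 0 and 2.71 CPM in the highest tertile of *Krt14* and at 12.03, 11.1 and 16.2 CPM in cells without it. *Casp8* was at 0, 10.2 and 13.4 CPM in the highest tertile and at 5.33, 25.4 and 25.0 CPM in cells without it. The pooled levels of both were thus lower with much *Krt14* in all 3 libraries, as were 23.3% of the genes at 50 CPM, a level that neither reached, and they rest on at most 34 cells with a count in any of these bins. From no *Krt14* to the highest tertile, the thinned share of *Casp1* went from 0.114% to 0% in control 1. It went from 0.728% to 0% in control 2 and from 0.521% to 0.152% in the library labelled *Vdr* cKO. Unthinned, 4 of 884 and 2 of 198 cells of control 1 had a count, and the thinned intervals overlap in each library. No order is therefore read for *Casp1*. For *Casp8* the shares of cells did not all follow. The thinned share rose in control 2, from 0.936% without *Krt14* to 1.96% in the highest tertile. It fell from 0.114% to 0% in control 1 and from 1.22% to 0.760% in the library labelled *Vdr* cKO. Unthinned, 16 of 614 and 22 of 669 cells of the latter had a count, from bins with medians of 2711.5 and 4361 counts per cell. The thinned intervals of these bins overlap in each library, so no order is read for *Casp8*. *Casp9* had 96.5% and 90.2% of its counts in cells without *Krt14* in the controls and 2.63% in the library labelled *Vdr* cKO. Its 110 counts of control 1 there lie mostly in the single cell named above.

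The genes whose levels were most like those of *Casp14* across bins were sought by Pearson's r of log2(CPM + 1), centred on each library. Bins of 1 library share cells across markers, so the points are not independent and r is a description. Over all 36 bins the highest were *Otud1* (r = 0.98), *Dpp3*, *F11r*, *Ap1ar* and *Clu*, where the median over 3915 genes was already 0.61, since the nearly empty bins without *Krt10* have many genes at 0. Over the 33 other bins, a choice made after seeing this, the median was 0.10, and the highest were *Cers3* (0.87), a ceramide synthase of the epidermal barrier, *Kprp* (0.87), a keratinocyte protein rich in proline, *Nccrp1* (0.86), *Agpat5* (0.85) and *Marchf8* (0.85). *Cers3* was at 54.6, 71.8 and 47.8 CPM, and went from 28.7 to 119 CPM, from 40.1 to 147 CPM and from 21.9 to 88.3 CPM between the lowest and highest tertile of *Lor*. Like *Casp14* it was highest in control 2.

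The genes of filaggrin and its processing did not all follow *Lor*. Of the 9 genes of filaggrin and its processing that reached 50 CPM, 5 were over 2-fold higher in the highest than in the lowest tertile in all 3 libraries, against 3.7% of all genes. These were *Flg*, *Flg2*, *Hrnr*, the protease *Asprv1*, which cuts filaggrin, and the kallikrein *Klk7*. *Flg* had log2 ratios of 3.897, 4.91 and 3.29 and *Klk7* of 1.58, 2.13 and 1.91. *Blmh*, which acts on filaggrin fragments after *Casp14*, was not among them with 0.83, 0.71 and 1.09, nor were *Klk5* (0.66, 0.071 and 1.19), *St14* (-0.20, 1.73 and 0.83) and *Capn1*, which was lower in all 3 libraries (-1.36, -0.90 and -0.17). Of the 4 inflammasome genes at this level, *Il18* (5.09, 5.70 and 4.16) and *Nlrp10* (1.79, 1.76 and 1.80) were over 2-fold higher in all 3 libraries, while *Pycard* had -0.89, -0.97 and -0.02. *Flg*, *Flg2* and *Hrnr* are also among the granular markers, and the list was drawn up with results of these data known.

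**Figure D5:**
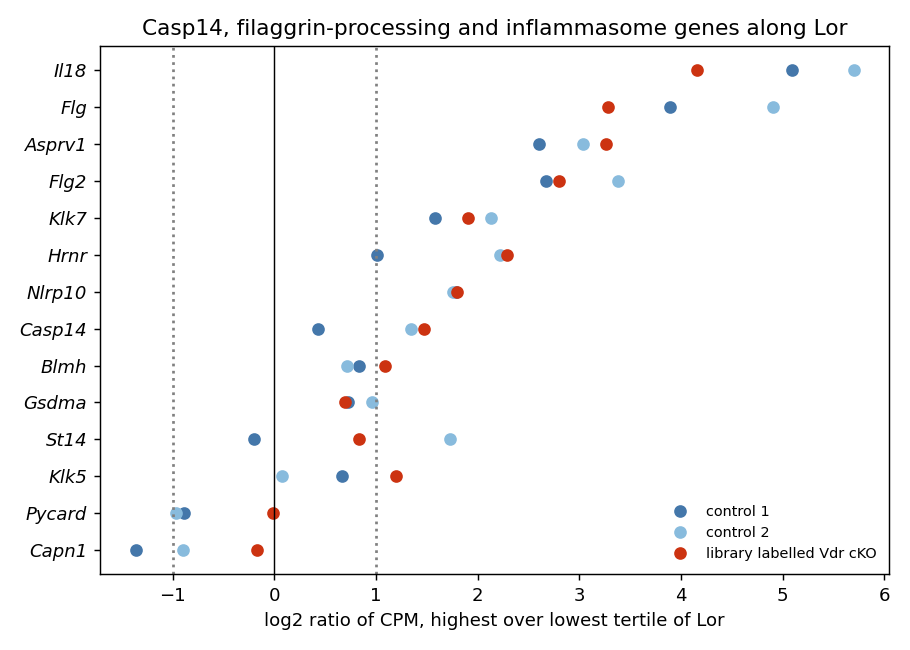
Log2 ratio of CPM between the highest and the lowest tertile of *Lor* for *Casp14* and the genes of filaggrin processing and the inflammasome that reached 50 CPM, with a point for each library. Dotted lines mark 2-fold; *Casp14* lies at 0.43, 1.35 and 1.47, below *Il18*, *Flg* and *Asprv1*.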

How the data were processed

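Cells of P18 dorsal skin were measured in 2 control libraries and 1 library labelled *Vdr* cKO. The authors deposited raw counts per gene and barcode, not normalized, as 1 matrix for each library; the submitters' processing notes name the mouse build mm10, and the study's methods name Seurat for the alignment of the datasets. A separate read aligner, the annotation and the treatment of duplicate molecules are not given in the sources used here. Counts were therefore treated as possibly holding PCR copies. All genes of a matrix not listed in a library were taken as 0.

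Barcodes from 200 detected genes upward with up to 20% mitochondrial counts were taken as cells. Doublets were not called. Counts were summed over cells and given as CPM. Folds are log2 with 1 CPM added, while calls (at least 50 CPM in a library, over 2-fold from both controls) used plain CPM. Shares used cells thinned at random to 1000 counts. Bins were set within each library. T cell classes needed 2 marker genes, inner root sheath cells 2, and antigen-presenting cells 3 genes and 2000 CPM. Intervals are exact Poisson and Clopper-Pearson at 95% and cover counting error. No p-value was computed, since 1 library carries the genotype and cells are not replicates.

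Genes named are the 7 caspases, the bin markers, *Vdr*, *Xist* and 4 Y-linked genes, genes of pathway and marker lists (some of them not reported here), and the 5 genes most like *Casp14*. The members and lists were chosen with earlier results of these data known. Chosen after seeing these values were the contrast of the highest with the lowest tertile, the 33 bins, the comparison of libraries within bins, leaving out a top cell or the inner root sheath cells, the class of inner root sheath cells, and the sequence motifs. Alternatives were other cell limits, TMM and RLE factors (edgeR 4.0.16 in R 4.3.3), other totals, levels, folds, bins and thinning depths, and a gene counted once in a cell. The scripts were tested on simulated data. Python 3.11.15, numpy 2.4.6, scipy 1.17.1, pandas 2.3.3 and matplotlib 3.10.9 were used.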

Additional observations from a re-analysis of the deposited data

Results flagged for a closer look

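The pooled level of *Casp14* rose along *Krt10* in the library labelled *Vdr* cKO and did not rise in either control. The log2 ratio of the highest to the lowest tertile of *Krt10* was -0.060 in control 1, -0.33 in control 2 and 1.26 in the library labelled *Vdr* cKO. This difference was not tested, since 1 library carries the genotype, and the contrast was chosen after the levels in the bins had been seen. The value of control 1 is close to 0 and became 0.33 with bin limits common to the libraries. That of control 2 became 0.089 with each gene counted once per cell. The library labelled *Vdr* cKO stayed between 0.93 and 1.39 under the 9 alternatives run for it. The thinned shares of cells with *Casp14* rose between these tertiles in all 3 libraries. They went from 5.51% to 6.79% in control 1, from 7.01% to 9.16% in control 2 and from 3.89% to 10.2% in the library labelled *Vdr* cKO. The intervals overlapped in both controls.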

How the results depend on the processing

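The log2 fold of *Casp14* between the libraries kept its direction under 14 alternatives, from -0.60 to -0.17, the latter without control 2. *Casp8* ranged from -0.46 to 0.87, *Casp4* from -1.23 to 0.43, *Casp1* from -0.33 to 0.48 and *Casp6* from -0.03 to 1.28, so their directions depend on the setting. *Casp9* ranged from 0.02 to 1.36. The top cell left out in these alternatives was that of *Casp14* only. Without its own top cell *Casp9* was at 0.533, 1.23 and 5.17 CPM, a setting that its range does not cover. TMM and RLE factors, which scale the libraries on the bulk of genes, lowered the median fold of all genes by -0.19 and -0.23 (log2). The share of higher genes among those called went from 77.2% to 54.6% and 50.2%. *Casp14* was at -0.58 and -0.60 there, beyond the gap of -0.42 between the controls in plain CPM. Of 3919 genes at 50 CPM 206 were called, and 567 with a fold of 1.5. With a level of 10 CPM 936 of 8806 genes were called, and with 100 CPM 100 of 2176. Without control 1 it was 356 of 3712 genes, and without control 2 it was 399 of 3786. *Casp14* was the only caspase tested in these settings, except at 10 CPM, where 4 caspases were tested. It was not called in any of them, and 0 of the 4 were called at 10 CPM. The remaining caspases were below the level and could not be called.

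The highest tertile of *Krt14* against no count gave *Casp14* log2 ratios, in control 1, of -0.093 with 2 equal bins, -1.88 with bins set on thinned cells, -0.0042 with 300 to 4000 genes and under 5% mitochondrial counts, and -1.40 without shared barcodes. In control 2 they were -0.95 with common limits and -2.10 with thinned bins, and in the library labelled *Vdr* cKO -1.04 with thinned bins, -0.96 with 300 to 4000 genes and -0.94 with each gene once per cell. Against the lowest tertile they were, in control 1, -1.91 with thinned bins, -0.18 with 300 to 4000 genes and -1.63 without shared barcodes, and in control 2 -1.996 with thinned bins, where the value as reported was -0.0015. Along *Krt10*, control 1 gave -0.28 with 2 equal bins, 0.33 with common limits, -0.35 with thinned bins and -0.26 without the top cell, control 2 gave 0.089 with each gene once per cell, and the library labelled *Vdr* cKO gave 0.93 with 2 equal bins. Along *Lor* every ratio stayed above 0 under the 9 alternatives, and control 2 fell to 1.12 against no count and 0.56 against the lowest tertile with each gene once per cell. The cause of these moves was not tested. Thinned to 500 counts the shares of cells with *Casp14* were 4.19%, 4.66% and 3.82%, at 2000 counts 12.4% in control 2 and 10.2% in the library labelled *Vdr* cKO, and unthinned 11.8%, 19.7% and 16.7%.

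The highest tertile of *Krt10* against no count gave no usable ratio, since 2, 10 and 16 cells without *Krt10* had 0 counts of *Casp14*. No paired analysis was possible, since the labels state no pairing of libraries and 1 library carries the genotype, and no test was made. With 3 counts as the floor, levels under 0.0969 to 0.160 CPM could not be seen in pooled cells.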

Other observations

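Barcodes not taken as cells numbered 1308, 802 and 160, in the same order of libraries, and also held *Casp14*, at 152 CPM (131 to 177), 172 CPM (139 to 211) and 103 CPM (54.9 to 176). The intervals hold the level of the kept cells in control 1 and in the library labelled *Vdr* cKO, and in control 2 they lie below it. Cells with counts of at least 2 of the 7 caspases numbered 15, 62 and 102, and had medians of 79557, 74825.5 and 35154 counts, against 3995.5, 3499.5 and 3457 in cells with none. Between 13.2% and 24.0% of cells held a count of any of the 7.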
